A study of Rattus norvegicus with 9 samples.

Results

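A set of 10 genes of cytotoxic lymphocytes were followed in RNA of rat hepatic macrophage preparations: perforin (Prf1), the granzymes Gzma, Gzmb, Gzmc, Gzmk and Gzmm, the granule membrane protein gene Nkg7, the natural killer receptors Klrd1 and Ncr1, and the transcription factor gene Eomes. They were taken by name from the platform annotation, and each gene was read from its brightest probeset by mean signal. They are 10 of the 18166 genes with a probeset of a single symbol, and they have 12 such probesets, of which 3 belong to Gzmb. All 9 rats were of the Sprague-Dawley strain, with 3 rats in each of 3 groups. The ligated groups underwent PPVL (partial portal vein ligation), in which a tie placed around the portal vein and a 20-gauge needle leaves a narrowed vein once the needle is withdrawn, and their macrophages were collected 3 or 10 days later. The sham rats had the same operation without the tie, and the labels give no day of collection for them. Macrophages were isolated from each liver separately, and the method of isolation and the age of the rats are not given in the labels.

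Natural killer cells and cytotoxic T cells kill by releasing granules. Perforin opens the membrane of the target cell, and granzymes, serine proteases packed in the same granules, enter and start cell death. The liver is rich in natural killer cells, which lie in the sinusoids beside Kupffer cells, the resident macrophages. Klrd1 encodes CD94, which pairs with NKG2 receptors to read MHC class I molecules, Ncr1 encodes the activating receptor NKp46, and Eomes, with its relative T-bet, directs the maturation of natural killer and memory T cells.

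The granzyme genes lie in clusters. In the RefSeq annotation of assembly GRCr8, Gzmc and Gzmb are next to each other among the protein-coding genes of chromosome 15, with Gzmbl3 on the other side of Gzmc, and Gzma and Gzmk are neighbours on chromosome 2. Klrd1 lies between Klre1 and Klrk1 on chromosome 4. RefSeq promoter sequences (GRCr8) matched 8 of the 10 genes, all but Klrd1 and Ncr1. The 250 bases before the gene start are shown for 4 genes whose levels are among those described most fully below, 5′ to 3′ on the strand of the gene. Capitals mark each copy of TGTGGT, the core bound by Runx factors, on either strand (ACCACA on the other).
Prf1, chr20:29788790-29789039, plus strand: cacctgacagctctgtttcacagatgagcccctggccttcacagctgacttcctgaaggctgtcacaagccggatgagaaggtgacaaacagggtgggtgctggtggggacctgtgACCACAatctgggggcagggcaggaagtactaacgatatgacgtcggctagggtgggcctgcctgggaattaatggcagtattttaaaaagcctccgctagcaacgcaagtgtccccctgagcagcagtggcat
Gzmb, chr15:34462470-34462719, minus strand: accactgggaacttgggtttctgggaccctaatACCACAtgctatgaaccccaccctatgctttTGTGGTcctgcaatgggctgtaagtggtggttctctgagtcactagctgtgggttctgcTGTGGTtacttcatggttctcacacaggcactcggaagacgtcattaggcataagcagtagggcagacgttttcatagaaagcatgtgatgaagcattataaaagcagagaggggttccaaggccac
Gzmc, chr15:34440007-34440256, minus strand: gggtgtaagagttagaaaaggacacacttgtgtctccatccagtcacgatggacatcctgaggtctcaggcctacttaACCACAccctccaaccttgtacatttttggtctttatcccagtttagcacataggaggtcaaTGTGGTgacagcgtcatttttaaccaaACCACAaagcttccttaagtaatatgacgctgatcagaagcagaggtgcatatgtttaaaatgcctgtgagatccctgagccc
Nkg7, chr1:102981247-102981496, plus strand: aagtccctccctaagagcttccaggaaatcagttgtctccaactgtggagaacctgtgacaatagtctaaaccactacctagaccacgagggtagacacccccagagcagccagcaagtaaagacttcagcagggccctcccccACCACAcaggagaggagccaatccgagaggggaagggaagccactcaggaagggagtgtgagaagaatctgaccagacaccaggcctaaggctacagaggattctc
The Runx letters were found in all 8 promoters, and in 14.5% of the 33469 promoters of this length in the table. The first of these bases lay 217, 186 and 127 bases before the start of Gzmb, 172, 110 and 83 before Gzmc, 134 before Prf1 and 106 before Nkg7. The letters GTGTGA of a T-box half-site, read by T-bet and Eomes, were in 4 of the 8 promoters (Gzmb, Gzmk, Gzmm and Nkg7) and in 11.6% of all. The Ets letters AGGAAG were in 3 of 8 (Gzmc, Nkg7 and Prf1) and in 29.5% of all, and the letters TGACG of a cyclic AMP response half-site were in 3 of 8 (Gzmb, Gzmc and Prf1) and in 18.2% of all. Both strands were searched for each motif, and none of the copies found overlapped one of another motif. The 4 motifs were chosen with these sequences in view, and a match describes letters, not binding.

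The arrays gave values for 36685 probesets. Their median signals lay between 5.21 and 5.26 on the log2 scale, and the correlation across probesets between arrays was 0.987 to 0.993. Of 13 macrophage markers all passed the filter for dim genes (a mean of at least 4.16). Lyz2 (mean 12.85), Cd68 (11.17) and Csf1r (10.25) were bright, while the Kupffer cell markers Vsig4 (4.26), Timd4 (4.40), Cd163 (4.50) and Clec4f (5.03) lay near the filter. All 10 cytotoxic genes passed it, with means of 7.49 (Eomes) to 11.71 (Prf1), so that none depended on a single group to be tested. In bulk RNA such as this, fewer cells of a type and less of the RNA per cell cannot be told apart. The labels do not name a sort that would remove lymphocytes.

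Levels are given as log2 signals for rats 1, 2 and 3 of a group in that order, which joins no rats across groups. Differences are log2 differences of group means ± the standard error (SE) of the limma fit, with n = 3 rats per group. Adjusted p is that of its moderated test with Benjamini-Hochberg adjustment over 14014 genes, and a gene passed the test when it was under 0.05. The comparisons of both days share the sham rats.

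The cytotoxic genes were lower after ligation, most evenly at 10 days, but Gzmc alone passed the test. At 10 days all 10 genes had a mean below sham, where 50.2% of all genes did, and their median difference was -0.42, where that of all genes was 0.00. In 9 of the 10, all but Ncr1, each 10-day rat lay below each sham rat, where 11.1% of all genes were lower without overlap. Gzmc passed the test, and 0.243% of all genes did so in this direction. At an unadjusted p under 0.05 with limma, 7 were lower, against 8.21% of all genes. At 3 days 9 of 10 means were below sham (55.0% of all genes), with a median difference of -0.24, where that of all genes was -0.01. None passed the test (0.714% of all genes were called lower), 3 had an unadjusted p under 0.05 with limma (6.39% of all), and 2 were lower without overlap (8.66% of all).

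**Figure D1:**
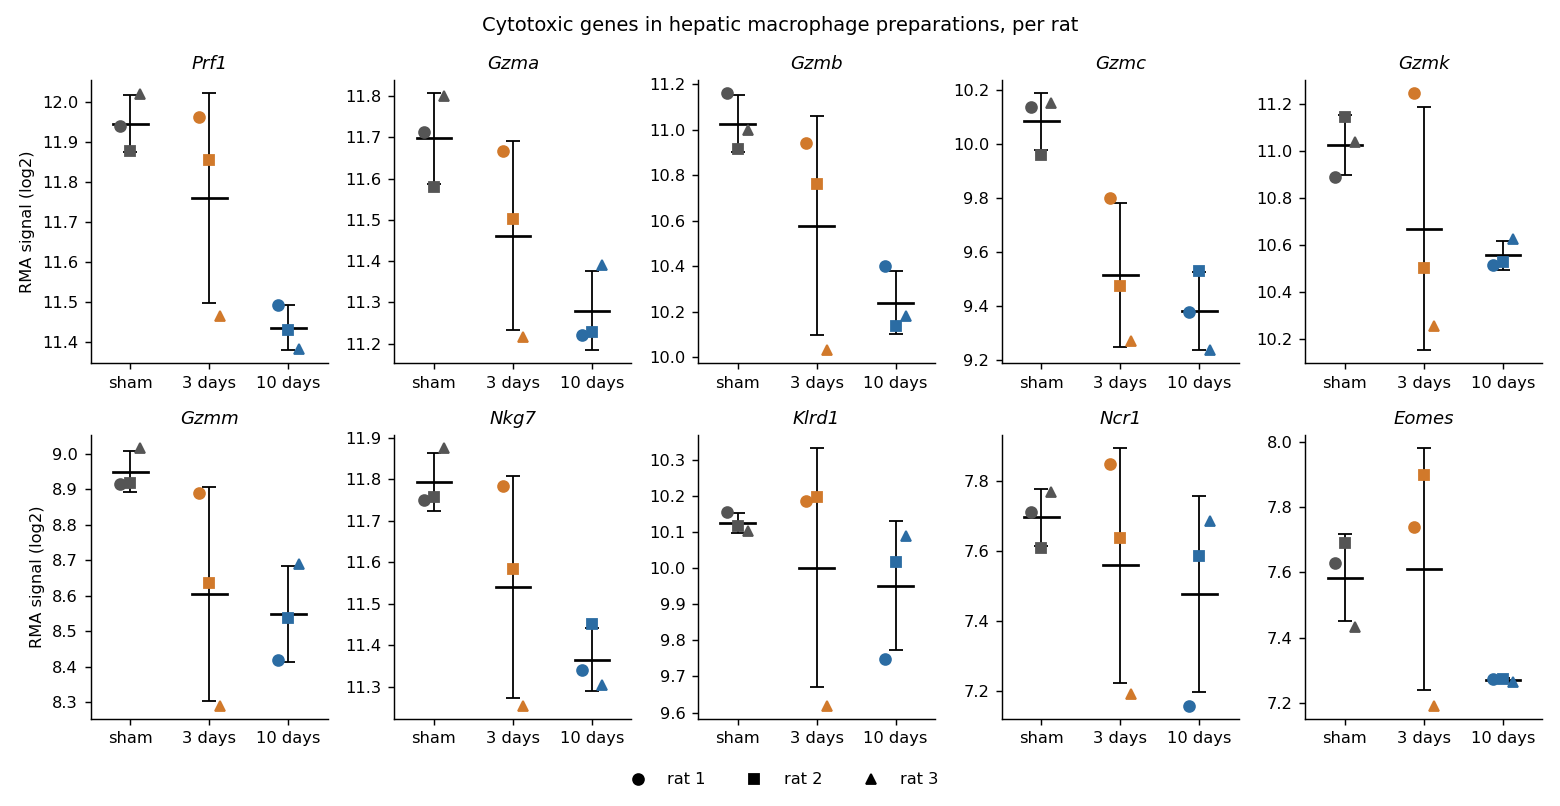
RMA signal (log2) of the 10 cytotoxic genes in each rat, with the mean (line) and SD (bar) of each group of 3, and a vertical axis of its own for each gene. The 10-day rats lie below the sham rats for every gene but Ncr1, and 3-day rat 3 is the lowest of its group for all 10.

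Perforin, the pore-forming protein of the granules, had levels of 11.94, 11.88 and 12.02 in the sham rats, 11.96, 11.86 and 11.46 at 3 days and 11.49, 11.43 and 11.38 at 10 days. Rats 1 and 2 at 3 days were in or just below the range of the sham rats, and 3-day rat 3 was at the level of the 10-day rats. Prf1 differed from sham by -0.18 ± 0.11 at 3 days (adjusted p = 0.509) and by -0.51 ± 0.11 at 10 days, 70.2% of the sham signal (adjusted p = 0.0705). Between the days the difference was -0.33 ± 0.11 (adjusted p = 0.356). Of the 9 fits that left out 1 array, only that without 3-day rat 3 brought the 10-day difference past the test (adjusted p = 0.0348). In the other 8 it did not pass (adjusted p up to 0.197). That rat is in neither group compared and enters only the estimate of spread that the groups share.

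Gzmc was the one member that fell past the test. It encodes a granzyme known from activated natural killer and T cells. Its levels were 10.14, 9.96 and 10.15 in sham, 9.80, 9.48 and 9.27 at 3 days and 9.38, 9.53 and 9.24 at 10 days. Every ligated rat lay below every sham rat, and the 2 ligated groups overlapped. The difference from sham was -0.57 ± 0.13 at 3 days, which missed the threshold (adjusted p = 0.0515), and -0.70 ± 0.13 at 10 days, 61.4% of the sham signal (adjusted p = 0.0491). The call at 10 days was kept in fits without 3-day rat 1 or 3-day rat 3 and lost in each of the 7 others that left out 1 array, with adjusted p up to 0.169. The 3-day difference passed without 3-day rat 1 (-0.71, adjusted p = 0.0172) and in none of the other 8 such fits (adjusted p up to 0.154).

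Gzmb, the main caspase-cleaving granzyme, had levels of 11.16, 10.92 and 11.00 in sham, 10.94, 10.76 and 10.03 at 3 days and 10.40, 10.14 and 10.18 at 10 days on its brightest probeset. The 10-day rats were all lower than the sham rats, and the 3-day rats spanned both. The difference from sham was -0.45 ± 0.20 at 3 days (adjusted p = 0.321) and -0.78 ± 0.20 at 10 days, 58.0% of the sham signal (adjusted p = 0.0965). It was the lowest mean difference among the 10 genes at 10 days. This 10-day difference passed the test without 3-day rat 3 (adjusted p = 0.0348), a rat in neither group compared. It passed in none of the other 8 fits without 1 array (adjusted p up to 0.234).

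The 3 Gzmb probesets differed in level and spread. The second gave 10.87, 10.66 and 10.92 in sham, 11.15, 9.94 and 9.45 at 3 days and 9.80, 9.82 and 10.35 at 10 days. Within the 3-day group the rats had the same order as on the first probeset, but 3-day rat 1 here lay above all sham rats, and within the 10-day group the order differed. Its 10-day difference was -0.83 ± 0.38, with an SE above that of the first probeset in the same fit of every probeset (0.21), and neither passed there (adjusted p = 0.449 and 0.222). The third probeset was dim, between 2.76 and 3.31 on all 9 arrays and under the filter value of 4.16, and its 10-day difference was 0.02 ± 0.12. Gzmb belongs to a cluster of like genes, and the sources used here do not say which copies each probeset reads.

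**Figure D2:**
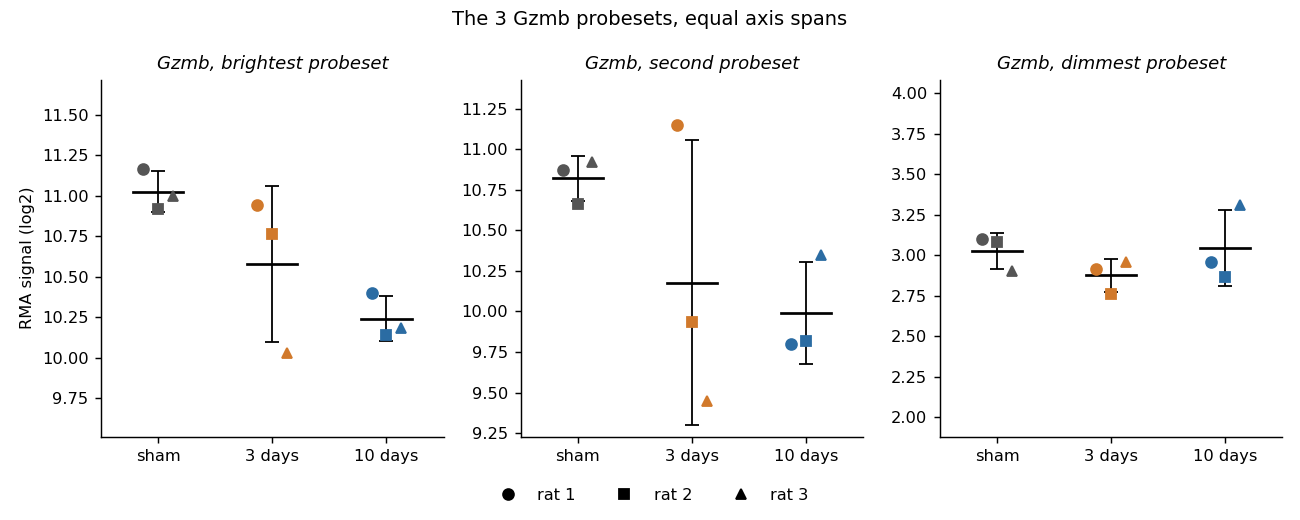
RMA signal (log2) of the 3 Gzmb probesets in each rat, with the mean (line) and SD (bar) of each group of 3, on axes of equal span. The 2 bright probesets are lower at 10 days than in sham without overlap, and the dim one stays between 2.76 and 3.31.

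The tryptase granzymes Gzma and Gzmk, neighbours in the genome, were both below sham at 10 days without overlap. Gzma had levels of 11.71, 11.58 and 11.80 in sham, 11.67, 11.50 and 11.21 at 3 days and 11.22, 11.23 and 11.39 at 10 days, a 10-day difference of -0.42 ± 0.11 (adjusted p = 0.112). Gzmk had 10.89, 11.15 and 11.04 in sham, 11.25, 10.50 and 10.26 at 3 days and 10.51, 10.53 and 10.63 at 10 days, a 10-day difference of -0.47 ± 0.21 (adjusted p = 0.301). The 3-day rats of Gzmk ran from above all sham rats (rat 1) to below all 10-day rats (rats 2 and 3). The 3-day differences were -0.24 ± 0.11 for Gzma and -0.36 ± 0.21 for Gzmk (adjusted p = 0.361 and 0.466). Without 3-day rat 1, the highest of its group, that of Gzmk was -0.64 and passed (adjusted p = 0.0200). In the other 8 fits without 1 array it did not pass (adjusted p up to 0.800), and it came as near to 0 as -0.15.

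Gzmm, a granzyme typical of natural killer cells, had levels of 8.91, 8.92 and 9.02 in sham, 8.89, 8.64 and 8.29 at 3 days and 8.42, 8.54 and 8.69 at 10 days. Like Gzmc it was lower than sham without overlap on both days. Its differences were -0.34 ± 0.13 at 3 days (adjusted p = 0.247) and -0.40 ± 0.13 at 10 days (adjusted p = 0.187). Nkg7, a granule membrane protein needed for efficient release, had levels of 11.75, 11.76 and 11.87 in sham, 11.78, 11.58 and 11.26 at 3 days and 11.34, 11.45 and 11.31 at 10 days. Its order of rats was that of Prf1 within the 3-day group, with differences of -0.25 ± 0.12 at 3 days (adjusted p = 0.349) and -0.43 ± 0.12 at 10 days (adjusted p = 0.118). The latter passed without 3-day rat 3 (adjusted p = 0.0485) and in none of the other 8 fits without 1 array (adjusted p up to 0.281).

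The receptors differed less from sham than the granule proteins did in mean, and their intervals included 0 on both days. At 3 days the intervals of Prf1, Gzma, Gzmk and Nkg7 included 0 as well. A difference between the receptors and the granule genes was not tested. Klrd1 had levels of 10.16, 10.12 and 10.10 in sham, 10.19, 10.20 and 9.62 at 3 days and 9.75, 10.02 and 10.09 at 10 days. The sham rats lay close together, and the highest 10-day rat lay just below the lowest sham rat. The differences were -0.12 ± 0.15 and -0.17 ± 0.15 (95% interval -0.51 to 0.16 at 10 days). Ncr1 had 7.71, 7.61 and 7.77 in sham, 7.85, 7.64 and 7.19 at 3 days and 7.16, 7.59 and 7.69 at 10 days, and was the one gene whose groups overlapped at 10 days. Its differences were -0.14 ± 0.17 and -0.22 ± 0.17 (95% interval -0.61 to 0.17 at 10 days). Adjusted p was 0.582 or higher for both receptors on both days.

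Eomes was the gene with a mean not below sham at 3 days. Its levels were 7.63, 7.69 and 7.43 in sham, 7.74, 7.90 and 7.19 at 3 days and 7.27, 7.27 and 7.26 at 10 days. Rats 1 and 2 at 3 days lay above all sham rats, rat 3 below all, and the 10-day rats lay close together and below every sham rat. The difference was 0.03 ± 0.16 at 3 days (adjusted p = 0.965) and -0.31 ± 0.16 at 10 days (adjusted p = 0.358), and between the days -0.34 ± 0.16 (adjusted p = 0.455).

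**Figure D3:**
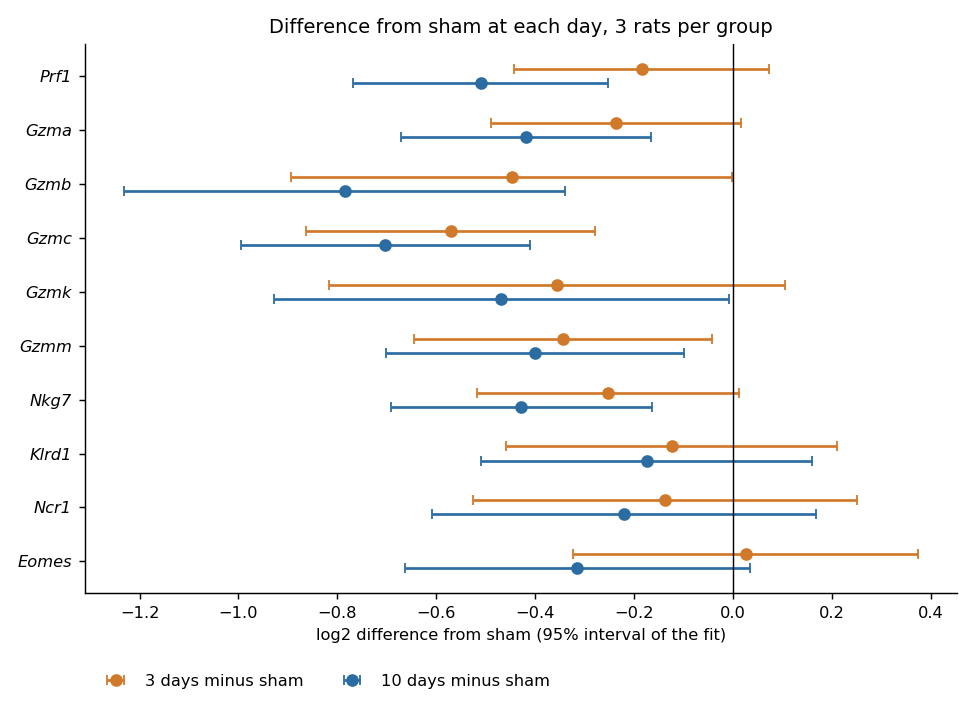
Log2 difference from sham of each cytotoxic gene at 3 days (orange) and 10 days (blue), with the 95% interval of the limma fit, 3 rats per group. All 10 points at 10 days are below 0, from -0.78 (Gzmb) to -0.17 (Klrd1), and the intervals of Klrd1, Ncr1 and Eomes include 0.

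Between 10 and 3 days all 10 means were lower at 10 days (48.1% of all genes), with a median difference of -0.15 and a range of -0.34 (Eomes) to -0.05 (Klrd1). No gene passed the test (0.0714% of all genes did, in either direction), with adjusted p of 0.356 or higher. Prf1 alone had an unadjusted p under 0.05 with limma (6.22% of all), and no gene was lower without overlap (7.74% of all). Without 3-day rat 3, 6 genes were lower without overlap (12.4% of all genes in that fit) and the median difference was -0.31. Without 3-day rat 1 the median was -0.02. A difference between the days was therefore not shown. In the F test over the 3 groups, Gzmc passed (adjusted p = 0.0427; 2.35% of all genes passed), and 6 of the 10 had an unadjusted p under 0.05 (17.8% of all).

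The 3-day rats differed among themselves more than the other groups did. The SD was largest in the 3-day group for all 10 genes, as for 34.3% of all genes. The median SD of the 10 was 0.32 at 3 days, 0.094 in sham and 0.12 at 10 days, where the medians over all genes were 0.091, 0.088 and 0.093. Rat 3 was the lowest of the 3-day rats for all 10 genes, as for 30.7% of all genes, and lay below every sham rat for all 10. Rat 2 lay below every sham rat for 7 genes and rat 1 for 2. How often a single 3-day rat lay below every sham rat among all genes was not counted, so these numbers have no background. These counts over the 10 genes come from the same 3 arrays and are not independent. The median difference at 3 days was -0.11 without rat 3 and -0.36 without rat 1. Without rat 1, 7 of the 10 genes were lower than sham without overlap, where 15.3% of all genes were, and without sham rat 2 there were 4, where 13.1% of all were. With 3 rats against 2, groups overlap less readily than with 3 against 3.

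The genes followed one another across the arrays. Pearson's r over the 9 arrays had a median of 0.79 among the 45 pairs and ran from 0.49 (Gzmc and Eomes) to 0.96 (Prf1 and Gzmb). After each group's mean had been subtracted the median was 0.73, with a range of 0.43 to 0.94. The pairs share arrays, and these values describe 9 arrays in 3 groups. The 8 other genes whose levels had the highest r with the mean profile of the 10 were Mcam, an adhesion molecule (0.97), the natural killer receptor Klri2 (0.96), Cd24 (0.96), the T and natural killer cell kinase Zap70 (0.95), Tacc1 (0.94), ST7 (0.94), the T cell adaptor Sh2d2a (0.94) and Ifitm1 (0.93). Of these Mcam had levels of 6.36, 6.31 and 6.33 in sham, 6.23, 6.06 and 5.67 at 3 days and 5.62, 5.84 and 5.71 at 10 days. They were taken from all genes tested for this likeness, so the values describe the choice.

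Genes that work with the 10 were taken in 7 lists of 79 genes, of which 67 were tested. At 10 days Runx3, which encodes a Runx factor of cytotoxic lymphocytes, was the one that passed the test, and it fell (0.243% of all genes were called lower). At 3 days Ctsc, the cathepsin that activates granzymes and is made by macrophages too, rose and no gene fell (2.15% of all genes were called higher). At 10 days 29 of the 67 were lower than sham without overlap (11.1% of all genes) and 5 were higher (9.88% of all), with a median difference of -0.22. At 3 days 14 were lower without overlap (8.66% of all) and 5 higher (10.1% of all), with a median of -0.09. Between the days none passed (0.0714% of all genes did, in either direction). At an unadjusted p under 0.05 with limma, 8 were lower, where 6.22% of all genes were, and 1 was higher.

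Runx3 had levels of 10.76, 10.80 and 10.83 in sham, 10.65, 10.28 and 10.26 at 3 days and 10.25, 10.27 and 10.17 at 10 days. All ligated rats were below all sham rats. The difference was -0.40 ± 0.10 at 3 days (adjusted p = 0.0669) and -0.57 ± 0.10 at 10 days (adjusted p = 0.0449). Of the 9 fits that left out 1 array, those without 3-day rat 1 and without 3-day rat 3 kept the 10-day call and the other 7 lost it. Tbx21, which encodes T-bet, had 9.40, 9.24 and 9.24 in sham, 9.20, 9.08 and 8.77 at 3 days and 8.60, 9.02 and 8.70 at 10 days, lower without overlap on both days. It differed by -0.52 ± 0.13 at 10 days (adjusted p = 0.0949). Zeb2, a factor of late natural killer cells and of macrophages, was higher without overlap at both days (0.30 ± 0.09 at 10 days, adjusted p = 0.122). Nfil3 was also higher without overlap at 10 days (0.14 ± 0.07, adjusted p = 0.343), and Id2 lay near sham (-0.06 ± 0.08). Of the 9 transcription factor genes 6 were lower without overlap at 10 days (11.1% of all genes) and 2 were higher (9.88% of all). Their median difference was -0.26.

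Other granzymes gave 2 tested genes. Gzmbl1, a granzyme B-like gene, had levels of 7.33, 7.11 and 7.24 in sham, 7.06, 5.86 and 5.85 at 3 days and 6.29, 5.28 and 6.51 at 10 days. It was lower than sham without overlap on both days, and its difference of -1.20 ± 0.36 at 10 days was larger in size than that of each of the 10 genes but did not pass (adjusted p = 0.148). Gzmf, with 9.02, 9.50 and 9.62 in sham and 9.55, 8.74 and 9.14 at 10 days, overlapped (-0.24 ± 0.24, adjusted p = 0.688). Gzmn shares its probesets with Gzmfl1 in the annotation and was not tested by name.

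Among 16 other natural killer receptors 10 were lower than sham without overlap at 10 days (11.1% of all genes) and 1 was higher (Fcgr3a, 9.88% of all). None passed the test, and the median difference was -0.39. Klrc1, the NKG2A partner of CD94, had levels of 10.76, 10.65 and 10.63 in sham, 10.47, 10.50 and 10.20 at 3 days and 9.98, 10.32 and 10.17 at 10 days (-0.52 ± 0.11 at 10 days, adjusted p = 0.0595). Klrk1, which encodes the activating receptor NKG2D, had 11.21, 10.95 and 11.20 in sham and 10.81, 10.79 and 10.49 at 10 days (-0.42 ± 0.11, adjusted p = 0.112). Klri1 (-0.47 ± 0.11) and Cd96 (-0.39 ± 0.10) were also lower without overlap on both days. Fcgr3a, an Fc receptor that macrophages also carry, differed by 0.60 ± 0.21 (adjusted p = 0.202), and Slamf7 by 0.03 ± 0.10.

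The adaptors and kinases of these receptors gave a mixed picture. Of 10 genes 5 were lower without overlap at 10 days (11.1% of all genes) and 1 was higher (9.88% of all). Txk (-0.39 ± 0.09), a kinase of T and natural killer cells, Sh2d2a (-0.49 ± 0.13), Zap70 (-0.32 ± 0.09) and Hcst, the adaptor of NKG2D (-0.36 ± 0.11), had adjusted p of 0.0705 to 0.152. Tyrobp and Fcer1g, adaptors that macrophages express as well, differed by -0.04 ± 0.11 and 0.11 ± 0.06. Sh2d1b2, an adaptor of natural killer cells, differed from sham by 0.58 ± 0.32 at 3 days and by -0.67 ± 0.32 at 10 days, and neither passed (adjusted p = 0.439 and 0.343). Its mean was 6.08. The brighter Sh2d1b of the same list (mean 9.63) differed by 0.21 ± 0.15 at 3 days and by 0.20 ± 0.15 at 10 days. Sh2d1a differed by -0.03 ± 0.12 at 10 days.

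The proteins that load and release granules, most of them shared with other leukocytes, had a median difference of 0.04 at 10 days over 10 genes. None of them passed at 10 days, and 3 were lower at an unadjusted p under 0.05 with limma (8.21% of all genes). Unc13d, which primes granules for fusion (-0.23 ± 0.10), and Serpinb9, an inhibitor of granzyme B (-0.25 ± 0.10), were lower without overlap, and the syntaxin Stx11 was higher without overlap (0.10 ± 0.06). Ctsw, a cathepsin of cytotoxic cells, overlapped (-0.33 ± 0.12, adjusted p = 0.206). Ctsc had levels of 9.33, 9.57 and 9.70 in sham, 9.96, 10.13 and 10.06 at 3 days and 9.70, 9.63 and 9.43 at 10 days, and rose by 0.52 ± 0.11 at 3 days (adjusted p = 0.0354), a call lost in 6 of the 9 fits without 1 array (adjusted p up to 0.120). Among 10 death ligands and effector cytokines none passed at either day, with a 10-day median of -0.08. Lower without overlap at 10 days were 2 of them (11.1% of all genes), the chemokine Ccl5 (-0.30 ± 0.09) and the Fas ligand gene Faslg (-0.44 ± 0.17). Ifng (-0.04 ± 0.14), Xcl1 (-0.004 ± 0.13), Csf2 (-0.001 ± 0.21) and Lta (0.02 ± 0.17) lay near sham at 10 days. Of 10 cytokine and homing receptors none passed at either day, and the 10-day median was -0.15. Lower without overlap at 10 days were 3 of them (11.1% of all genes). Il12rb2, a subunit of the receptor for interleukin 12, differed by -0.48 ± 0.10 at 10 days (adjusted p = 0.0698), Il7r by -0.42 ± 0.10 and the integrin Itga1 by -0.44 ± 0.17. The chemokine receptor gene Cx3cr1, which macrophages also express, differed the other way by 0.33 ± 0.12 with overlap (adjusted p = 0.230), and Il2rg (-0.03 ± 0.06), Il18r1 (-0.05 ± 0.17) and S1pr5 (-0.08 ± 0.10) lay near sham.

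**Figure D4:**
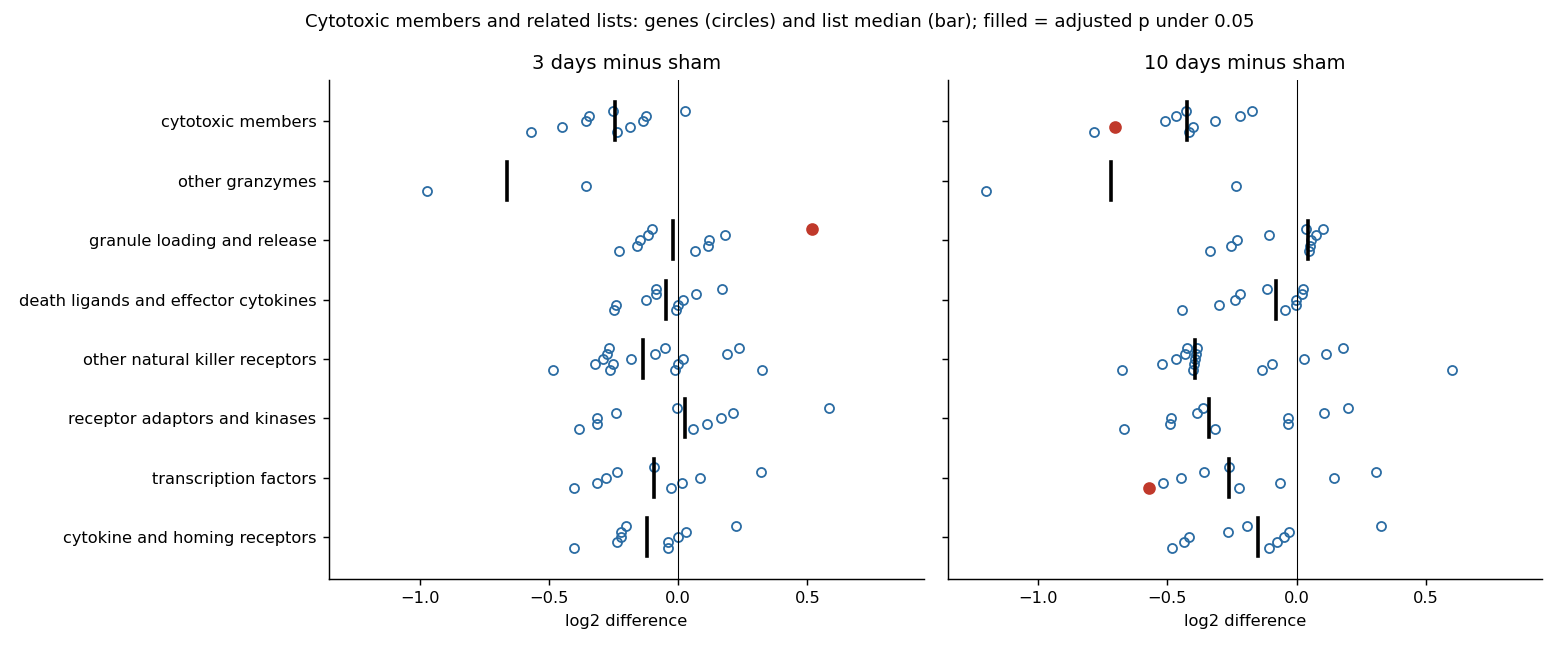
Log2 differences from sham at 3 days (left) and 10 days (right) for the 10 cytotoxic genes and the tested genes of 7 related lists (circles), with each list's median (bar) and genes past the test filled. At 10 days the medians are -0.42 for the cytotoxic genes, -0.39 for the other natural killer receptors and 0.04 for granule loading and release.

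Markers of other cells moved with these comparisons. To score a list in 1 rat, each gene's log2 signal was centred on its own mean of all 9 arrays, and the centred values were averaged. The score of the 10 cytotoxic genes was 0.24, 0.20 and 0.26 in sham, 0.25, 0.05 and -0.38 at 3 days and -0.26, -0.19 and -0.17 at 10 days. That of 18 T cell markers was 0.32, 0.13 and 0.24 in sham, -0.21, -0.05 and 0.10 at 3 days and -0.19, -0.08 and -0.25 at 10 days. Both scores were lower at 10 days than in sham without overlap. Within the 3-day group they ran in opposite order, with the cytotoxic score highest and the T cell score lowest in rat 1 and the reverse in rat 3. The T cell receptor subunit Cd3e had levels of 9.11, 9.46 and 9.60 in these 3 rats, against 9.91, 9.57 and 9.72 in sham. At 10 days 15 of the 18 T cell genes were lower without overlap, where 11.1% of all genes were. Of all genes 0.243% were called lower at 10 days. Among them Cd5 (-0.58 ± 0.10) and Cd6 (-0.64 ± 0.12) passed the test (adjusted p = 0.0449 and 0.0491). Both calls were lost in 7 of the 9 fits without 1 array. At 3 days 11 of the 18 were lower without overlap, where 8.66% of all genes were. Of all genes 0.714% were called lower at 3 days. Among them the T cell factor gene Tcf7 fell (-0.38 ± 0.08, adjusted p = 0.0376), a call also lost in 7 of those 9 fits.

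The score of 13 macrophage markers was -0.21, -0.27 and -0.21 in sham, -0.01, 0.01 and 0.53 at 3 days and 0.01, 0.04 and 0.09 at 10 days. It was thus higher than sham on all ligated arrays and highest in 3-day rat 3, the array on which the cytotoxic score was lowest. The markers did not move together on that array. At 3 days the dim Vsig4 had 4.13, 3.98 and 5.70, and Clec4f had 5.02, 4.74 and 5.82. The bright Lyz2 had 13.09, 13.09 and 12.94 and Cd68 had 11.40, 11.42 and 11.19, both lowest in rat 3. The lysozyme gene Lyz2 rose by 0.37 ± 0.07 at 3 days (adjusted p = 0.0200), a call lost in 5 of the 9 fits without 1 array. At 10 days Adgre1 (0.50 ± 0.12) and Csf1r (0.59 ± 0.15) were higher without overlap and did not pass (adjusted p = 0.0910 and 0.104). The score of 8 B cell markers was between -0.32 and -0.25 in sham, -0.10 and 0.34 at 3 days and 0.11 and 0.37 at 10 days. The B cell complement receptor gene Cr2 rose by 0.75 ± 0.14 at 3 days (adjusted p = 0.0213), a call lost in 3 of those 9 fits.

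Neutrophil markers differed most from sham at 3 days, though not all of them rose. Over 10 genes the median difference from sham was 0.83 at 3 days and 0.11 at 10 days. At 3 days 2 of the 10 were below sham, Mmp9 and Ngp (-0.30 ± 0.53), and Camp (0.12 ± 0.27) and Lcn2 (0.03 ± 0.36) lay near it. Mmp9 was lower than sham without overlap on both days. It differed by -0.21 ± 0.08 at 3 days (adjusted p = 0.222) and by -0.38 ± 0.08 at 10 days (adjusted p = 0.0624). Fcnb, a ficolin gene of this list with a mean of 11.42, rose by 1.23 ± 0.18 at 3 days (adjusted p = 0.0103) and passed in all 9 fits without 1 array. Which cells gave its signal was not tested. Csf3r, the receptor for granulocyte colony-stimulating factor, rose by 1.04 ± 0.21 (adjusted p = 0.0326), a call lost in 6 of them. The score was -1.02, 0.14 and 0.23 in sham, 0.52, 0.65 and -0.04 at 3 days and 0.10, -0.02 and -0.56 at 10 days. Sham rat 1 stood far below the other sham rats, and 3-day rat 3, with the lowest cytotoxic score, also had the lowest neutrophil score of its group. Of the 10 mast cell markers 4 were tested, and Cpa3 (3.54), Fcer1a (3.66) and Mcpt1 (2.94) had means below the filter value. Kit, a receptor of mast cells and of progenitors, had a mean of 8.57 and was lower than sham without overlap on both days. It fell by 0.55 on the log2 scale at 3 days (SE 0.12, adjusted p = 0.0486), a call lost in 7 of the 9 fits without 1 array, and differed by -0.49 ± 0.12 at 10 days (adjusted p = 0.0948). Tpsb2 of the same list, with a mean of 4.83 near the filter, went the other way at 10 days. It was higher than sham without overlap there (0.31 ± 0.11, adjusted p = 0.210). The score of 6 hepatocyte markers was -0.07, -0.31 and -0.05 in sham, 0.15, -0.27 and 0.30 at 3 days and 0.03, 0.08 and 0.14 at 10 days. It was highest in 3-day rat 3. The score of 3 endothelial markers overlapped between the groups. The part of these shifts in the differences of the cytotoxic genes was not tested.

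**Figure D5:**
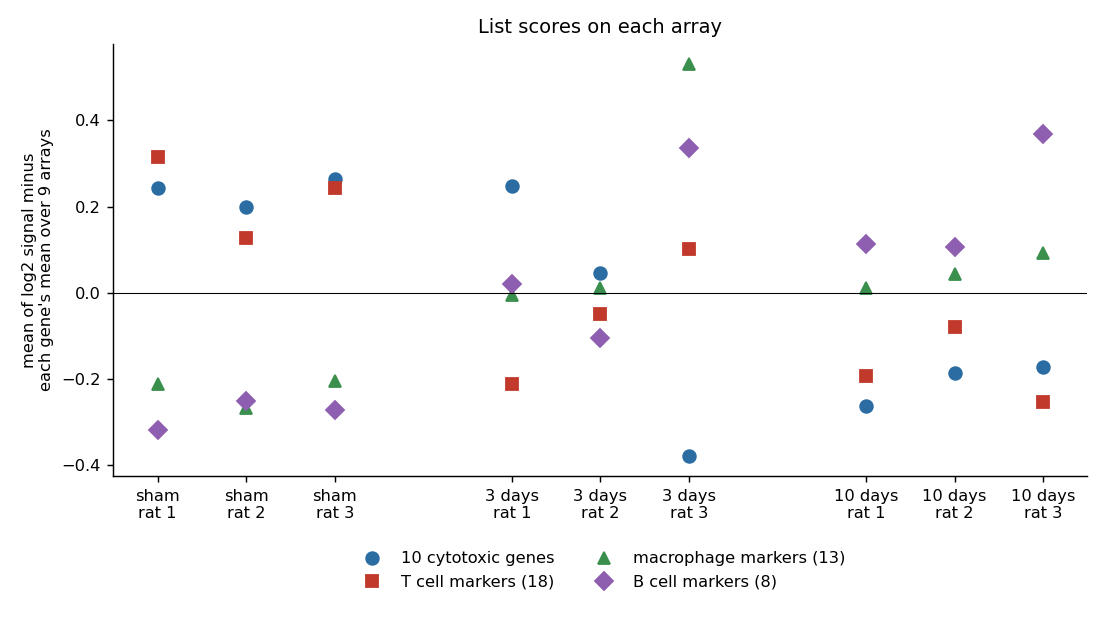
Score of the 10 cytotoxic genes and of the T cell, macrophage and B cell marker lists on each array, in log2 units centred on each gene's own mean. On 3-day rat 3 the cytotoxic score is -0.38 and the macrophage score 0.53, and on 3-day rat 1 the cytotoxic score is 0.25 and the T cell score -0.21.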

How the data were processed

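Hepatic macrophage RNA of 9 rats, labelled with biotin, was hybridised to Affymetrix arrays of 1 colour. The deposited values are log2 signals per probeset, made with RMA by the authors and Transcriptome Analysis Console, both named in the submitters' processing notes with no version given. Build, scan dates and RMA settings are not given in the sources used here, and for arrays their number limits the precision. Of 36685 probesets, 18511 carry 1 gene symbol in the platform annotation. The highest-mean probeset stood for a gene. Genes whose mean reached 4.16, the 30th percentile over the probesets, entered the tests, 14014 in all. Linear models (limma 3.58.1, R 4.3.3) were fitted to all 9 arrays, with 3 groups and no covariate, and checked on simulated data. Tests were 2-sided with Benjamini-Hochberg adjustment per comparison and a threshold of 0.05. With 3 rats against 3 an exact permutation test cannot go below p = 0.1. The labels name separate rats.

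The 10 genes and the lists were chosen with earlier results of these data known. The genes chosen to be named were the 10, all Gzmb probesets, from each list up to 3 genes (smallest p of the F test) and those past a test, and the 8 genes most like the mean profile. Of these, Ltb, Fcer2, Ms4a1, Gata2 and single genes of the hepatocyte and endothelial lists are not described above. Cd3e, Klrk1, Unc13d, Serpinb9, Cx3cr1, Il2rg, Il18r1, S1pr5, Slamf7, Fcgr3a, Tyrobp, Fcer1g, Ngp, Camp, Lcn2 and the macrophage and mast cell markers named for their level were added after their values were seen. So were Sh2d1a, Sh2d1b, Nfil3, Id2, Ifng, Xcl1, Csf2 and Lta. Of 167 listed genes 22 were not found under a single symbol. Alternatives covered the filter, the probeset rule, normalization, moderation, array weights, a replicate block, the groups fitted and leaving out each array.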

Additional observations from a re-analysis of the deposited data

How the results depend on the processing

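At 10 days the median difference of the cytotoxic genes (-0.42) stayed between -0.47 and -0.38 in all 18 alternatives, and 8 to 10 of the 10 genes were lower without overlap. The number past the test (1) was 0 with no filter, with every probeset tested and with a replicate block, 3 with only the 2 groups compared, and 0 to 4 without 1 array. All genes past the test, 103 at 10 days, were 0 to 197. At 3 days the number of the cytotoxic genes past the test (0) was 1, Gzmc, with the filter at the 50th percentile, quantile normalization, intensity trend and robust moderation, or array weights, and 0 to 2 without 1 array. The number lower without overlap (2) was 4 after quantile normalization and 2 to 7 without 1 array, and all genes past the test (401) were 107 to 530. Between the days 0 passed in every alternative, 0 to 6 were lower without overlap without 1 array, and all genes past the test (10) were 0 to 18. In the F test the 1 gene became 0 with no filter, with every probeset tested and with a replicate block, and 0 to 4 without 1 array.

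Directions of the cytotoxic genes turned in fits without 1 array and on the dim Gzmb probeset. At 3 days the range was -0.12 to 0.23 for Eomes, -0.22 to 0.067 for Klrd1 and -0.28 to 0.046 for Ncr1. Between the days it was -0.25 to 0.010 for Gzmc, -0.32 to 0.18 for Gzmk, -0.21 to 0.086 for Gzmm, -0.24 to 0.051 for Klrd1 and -0.27 to 0.078 for Ncr1. The dim Gzmb probeset gave 0.018 at 10 days against sham and 0.17 between the days. The cause of these changes was not tested. The labels link rats of the same number across groups by nothing but that number. Deviations of rats with the same number correlated between -0.095 and 0.084, against -0.13 to 0.17 for other pairs. The replicate block left 0 genes past the test at 10 days, where there were 103 without it. A block also leaves fewer degrees of freedom for the spread, so this loss does not show whether the rats were paired.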
